A study of Mus musculus with 4 samples.

Results

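The genes described here are 34 cell cycle genes, chosen by symbol from a list of names: 16 that act in S phase and at its start, and 18 that act in G2 and mitosis. All 34 were found among the 27998 genes of the count matrix. The study profiled cells of adult mouse back skin by droplet single-cell RNA sequencing of transcript 3′ ends, to compare control and Ovol1 null skin without and with imiquimod, an activator of Toll-like receptor signalling that causes psoriasis-like inflammation when put on skin. Ovol1 is a zinc finger transcription factor of epithelia. There were 4 libraries with 1 library per group, and their values are given throughout in the order untreated control, imiquimod-treated control, untreated Ovol1 null and imiquimod-treated Ovol1 null skin. All mice were of the CD1 strain, and those treated received 1 dose of 62.5 mg of a 5% imiquimod cream on shaved back skin at 7 to 8 weeks of age. The cells were sorted by flow cytometry before capture. The gate, the time from dose to harvest, the number of mice per library, the control genotype and the null allele are not given in the sources used here. After filters, 6066, 5576, 5214 and 5553 cells remained. They had a median of 5706.5, 4759.5, 5703 and 8394 unique molecular identifiers (UMIs, each standing for 1 captured transcript), so the library labelled Ovol1 null imiquimod was the deepest. Of the barcode sequences, 234 occurred in more than 1 library.

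Ovol1 tags did not separate the libraries in the way their labels would. Ovol1 in basal keratinocytes was at 18.4, 36.4, 16.3 and 30.3 CPM (UMIs of a gene per 1000000 UMIs of the class of cells), and in suprabasal keratinocytes at 43.1, 39.4, 56.3 and 159.7 CPM. These 3′ tags can lie outside the deleted part and therefore do not check the genotype, so the null libraries are called by their labels. With 1 library per group no difference between groups has a replicate check, and genotype, treatment, mouse and library cannot be told apart. No test between groups was made, and every interval below is a 95% interval that covers counting error only.

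A dividing cell copies its DNA in S phase and separates the copies in mitosis, with gap phases G1 and G2 between. E2F factors, released when cyclin-dependent kinases phosphorylate Rb proteins, switch on the genes of DNA replication, and complexes containing MYB-like and FOXM1 factors later switch on the genes of mitosis through promoter elements called CHR and CCAAT boxes. In skin, divisions take place mainly in the basal layer of the epidermis and in hair follicles, while suprabasal cells differentiate, and thickening of psoriasis-like epidermis goes with more dividing basal cells.

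Promoter sequences of members were searched for the letters of these elements, and 4 are shown because the 2 lists behave differently in the results. RefSeq windows on build GRCm38.p6, from 250 bases before to 50 after the transcript start, were at hand for 27 of the 34 members (28 windows, 2 of them of Mcm7). The letters searched on both strands were TTTGAA for CHR, CCAAT for the CCAAT box, and tttcccgc, tttggcgc, tttcgcgc and tttgccgc for E2F, whose words overlap across strands in some windows. CHR letters were in 10 of 14 G2 and M windows (71.4%), in 1 of 14 S windows (7.14%) and in 17.9% of all 32851 windows. CCAAT letters were in 13 of 14 G2 and M windows (92.9%), 10 of 14 S windows (71.4%) and 37.4% of all windows. E2F words were in 1 of 14 G2 and M windows (7.14%), 5 of 14 S windows (35.7%: Cdc6, Mcm3, Mcm5, Mcm6 and Mcm7) and 2.26% of all windows. The windows of Birc5, Ccne1, Tyms and Ung held none of these letters. A match is a description of the letters and no measured binding site. The 250 bases before the start are printed for 2 mitotic members, the kinase Cdk1 (chr10:69352913-69353162, minus strand) and the spindle checkpoint target Cdc20 (chr4:118437344-118437593, minus strand), and for 2 members that encode subunits of the replicative helicase, Mcm5 (chr8:75109259-75109508, plus strand) and Mcm6 (chr1:128359706-128359955, minus strand). They run 5′ to 3′ toward the gene, and capitals mark the letters of any of the 3 elements.
Cdk1: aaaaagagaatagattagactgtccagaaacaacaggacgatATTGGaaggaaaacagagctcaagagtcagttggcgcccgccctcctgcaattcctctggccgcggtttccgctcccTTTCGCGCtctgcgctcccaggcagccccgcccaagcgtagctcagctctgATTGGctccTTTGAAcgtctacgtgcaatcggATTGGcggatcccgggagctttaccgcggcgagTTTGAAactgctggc
Cdc20: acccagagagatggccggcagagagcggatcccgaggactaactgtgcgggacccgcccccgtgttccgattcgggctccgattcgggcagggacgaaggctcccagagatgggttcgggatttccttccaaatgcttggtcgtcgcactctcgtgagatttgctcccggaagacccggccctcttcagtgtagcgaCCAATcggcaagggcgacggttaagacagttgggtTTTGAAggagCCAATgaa
Mcm5: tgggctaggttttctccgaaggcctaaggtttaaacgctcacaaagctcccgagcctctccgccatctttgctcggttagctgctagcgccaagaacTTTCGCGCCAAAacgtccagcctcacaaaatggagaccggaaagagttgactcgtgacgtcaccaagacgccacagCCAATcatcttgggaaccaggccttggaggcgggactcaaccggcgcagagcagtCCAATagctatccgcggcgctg
Mcm6: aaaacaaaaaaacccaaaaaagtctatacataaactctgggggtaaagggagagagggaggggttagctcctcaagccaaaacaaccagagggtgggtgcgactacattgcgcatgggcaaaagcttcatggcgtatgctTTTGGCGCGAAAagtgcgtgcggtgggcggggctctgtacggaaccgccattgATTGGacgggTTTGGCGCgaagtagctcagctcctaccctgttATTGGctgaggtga
In Cdk1, CHR letters start 71 and 15 bases before the transcript start, and in Cdc20 they start 18 bases before it. Cdk1 also holds an E2F word, which starts 131 bases before the start, and is the 1 G2 and M window of 14 that has one. Mcm5 and Mcm6 hold E2F words on both strands, the first of them starting 153 and 110 bases before the start, and no CHR letters in this window.

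The members were read mostly in keratinocytes with basal markers. The basal class had 602, 1153, 836 and 471 cells, and all 8 of its marker genes were detected, with a summed level of 28834, 23362, 28546 and 34590 CPM. The clusters were made without the 139 members and further cell cycle genes listed, while others such as Hist1h2ap were not left out. The libraries held the class in different clusters. For the control and labelled Ovol1 null untreated libraries, 1 cluster held 79.4% and 79.7% of the basal cells. Another held 84.2% of those of control imiquimod. Another, named from clustering that library alone, held 94.1% of those of the library labelled Ovol1 null imiquimod. A further cluster, with the cell cycle genes Hist1h2ap and Ube2c among its leading genes, was shared and held 20.1%, 12.8%, 19.4% and 4.46% of the basal cells. Basal cells had a median of 5039.5, 5317, 5495.5 and 15582 UMIs, so the fourth library stood apart by depth within the class. Markers of other cell types moved with the libraries as well. In basal cells the summed suprabasal list was at 1222, 2452, 1686 and 3668 CPM, the fibroblast list at 1598, 1152, 2269 and 628.2 CPM, and the T or NK list at 147, 69.1, 132.9 and 125.4 CPM. The neutrophil list, which includes S100a8 and S100a9 that stressed keratinocytes also make, was at 1.19, 50.1, 2.75 and 12906 CPM, with 2 of its 8 genes at 0 in the last library. Their part in the results was not tested.

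Of the classes compared, which have 50 cells or more in every library, the 18 G2 and M members had their 2 highest summed levels in basal keratinocytes and in a keratinocyte cluster led by Sostdc1, a secreted BMP and Wnt antagonist of the hair follicle. Summed over the G2 and M members, basal cells had 1889, 799.5, 1722 and 1627 CPM, and the Sostdc1-led cluster 1309, 749.9, 1052 and 1491 CPM. Suprabasal keratinocytes had 119.3, 131.8, 185.5 and 345 CPM, the upper hair follicle 261.9, 172.4, 242.3 and 134.8 CPM, and fibroblasts 26.4, 39.6, 47.7 and 26.0 CPM. Basal cells were above suprabasal cells in all 4 libraries. Among other cells, T or NK cells were at 753.5, 437.4, 332.8 and 508.8 CPM and a cluster with all 10 macrophage markers at 561.4, 320.1, 972.8 and 88.7 CPM, the last from 44 UMIs in 63 cells.

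The 16 S members differed less between classes. Summed over these members, basal cells had 433.9, 326.1, 453.2 and 930.4 CPM and suprabasal cells 140, 129.4, 139 and 227.6 CPM. Fibroblasts had 100.9, 112.8, 105.1 and 99.3 CPM and T or NK cells 518, 498.9, 472 and 439.4 CPM. The S sum of basal cells was thus highest in the library labelled Ovol1 null imiquimod, in which the G2 and M sum was not the highest. The S sum per G2 and M sum in basal cells was 0.230, 0.408, 0.263 and 0.572.

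**Figure D1:**
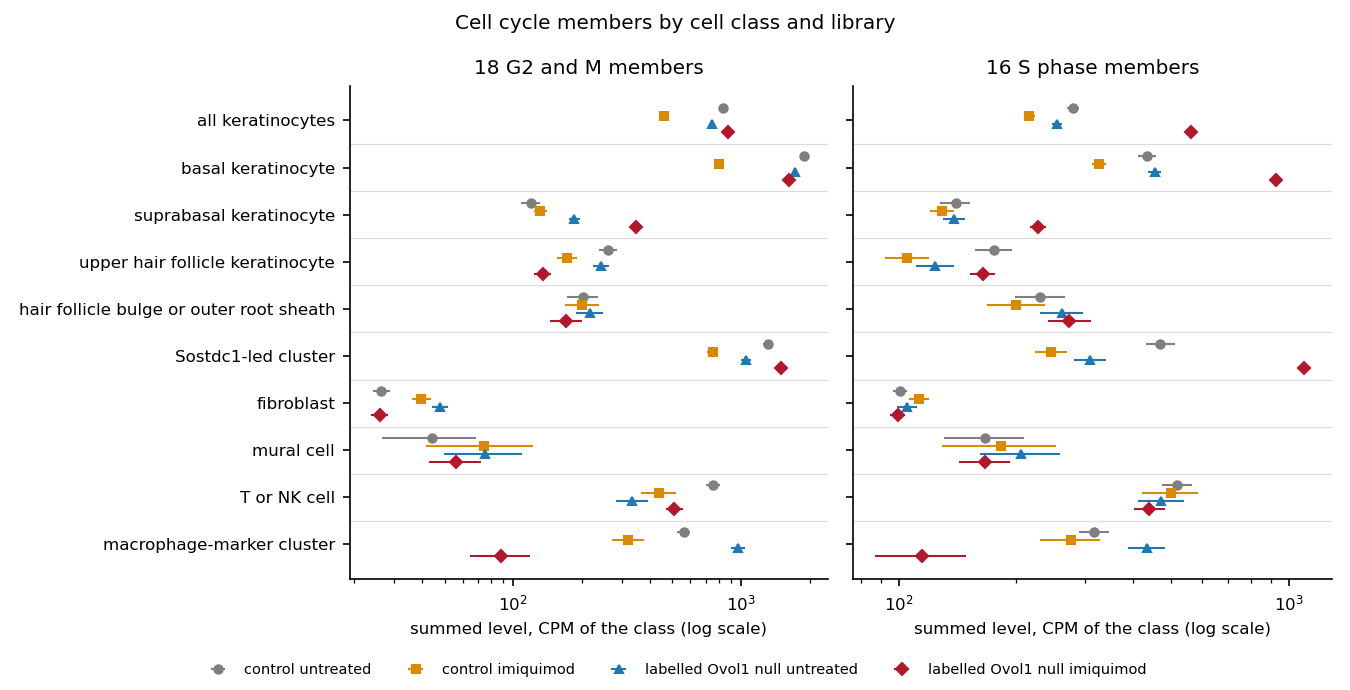
Summed level of the 18 G2 and M members (left) and of the 16 S members (right) by cell class, in CPM of the class on a log axis, with 1 point per library and bars for the 95% counting interval. Basal keratinocytes and the Sostdc1-led cluster lie far to the right of suprabasal cells and fibroblasts for G2 and M, and the classes lie closer together for S.

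The members varied in how sharply they marked cells that also carried other members. In control untreated keratinocytes, Cdk1 was at 1.24 UMIs per 10000 in the 310 cells with 3 or more UMIs of the other G2 and M members, and at 0.0123 per 10000 in the 840 cells with none. Stmn1, which encodes the microtubule-destabilising protein stathmin, was at 28.0 against 1.36 per 10000, and 40.7% of the cells with no UMI of another G2 and M member carried it. Stmn1 also supplied 42.5% of all G2 and M UMIs in control untreated keratinocytes and 22.9% in the library labelled Ovol1 null imiquimod, so the sum leaned on 1 gene that was common in cells without other members. Within the S list, Mcm5 was at 0.410 against 0.0171 per 10000 and Rrm2, the small subunit of ribonucleotide reductase, at 0.653 against 0.0195 per 10000. Mcm7, another helicase subunit, was at 0.569 against 0.192 per 10000 and Pcna, the sliding clamp of DNA polymerase, at 0.693 against 0.165 per 10000. Of the cells with no UMI of another S member, 8.52% carried Mcm7 and 7.56% Pcna, against 0.789% for Mcm5 and 0.901% for Rrm2. Tyms, with 12.5%, and Slbp, with 11.9%, were the S members found most often in such cells.

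Imiquimod in control skin: in basal keratinocytes, 21 of the 34 members were lower in control imiquimod than in control untreated and none was higher. Here a member is called higher or lower if it differs by 1.5-fold or more and its counting interval lies on one side of 1, and it is measured if both libraries together hold 20 or more of its UMIs. By this rule 17 of 18 measured G2 and M members and 4 of 14 measured S members were lower, while 14.8% of the 10590 genes measured were lower and 6.68% higher. The median log2 ratio was -1.32 over the G2 and M members, -0.28 over the S members and -0.21 over all genes. Summed, the G2 and M members were 2.36-fold lower (2.28 to 2.45) and the S members 1.33-fold lower (1.24 to 1.42). TMM scaling, which shifts all log2 ratios of this comparison by 0.21, leaves 16 members lower and the S sum at a log2 ratio of -0.20.

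The mitotic genes led this difference. Top2a, the topoisomerase that untangles chromosomes, was at 129.8, 40.7, 107.5 and 83.3 CPM, 3.19-fold lower (2.73 to 3.72) in control imiquimod than in control untreated. Ube2c, the ubiquitin-conjugating enzyme of the anaphase-promoting complex, was at 162.8, 51.3, 121.9 and 117.6 CPM, 3.17-fold lower (2.77 to 3.64). Aurkb, a kinase of the chromosomal passenger complex, was at 22.9, 7.88, 23.4 and 24.3 CPM, 2.91-fold lower (2.02 to 4.21). For these genes control imiquimod was the lowest of the 4 libraries. Mki67, which encodes the proliferation marker Ki-67, was at 58.0, 21.6, 44.8 and 45.7 CPM, and Cenpf, a kinetochore protein, at 75.9, 27.5, 61.2 and 40.1 CPM. Both were lower in control imiquimod than in control untreated, Mki67 by 2.69-fold (2.16 to 3.36) and Cenpf by 2.76-fold (2.27 to 3.35). Ccnb2, a mitotic cyclin, was at 41.1, 26.6, 39.2 and 77.5 CPM, 1.54-fold lower (1.23 to 1.94). Cenpa, the centromeric histone, was at 91.1, 62.2, 67.5 and 130.3 CPM and did not reach the fold, at 1.47-fold lower (1.26 to 1.70).

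Most S members in control skin lay close to each other in the untreated and imiquimod libraries. The S members that were lower in control imiquimod were Rrm1, Rrm2, Mcm2 and Slbp. Rrm1, the large subunit of ribonucleotide reductase, was at 44.6, 23.5, 40.0 and 76.0 CPM, 1.90-fold lower (1.51 to 2.39). Slbp, which binds the stem-loop of histone mRNAs, was at 68.7, 41.9, 75.2 and 97.7 CPM, 1.64-fold lower. Pcna was at 33.3, 27.5, 46.9 and 63.7 CPM and Gins2, a subunit of the helicase-activating GINS complex, at 20.5, 19.5, 19.8 and 50.8 CPM, and neither reached the fold in control skin. The cyclin E genes Ccne1 and Ccne2 and the helicase loader Cdc6 were sparse. Ccne1 was at 0.298, 1.78, 0.785 and 11.4 CPM from 1, 12, 4 and 94 UMIs. Cdc6 was at 1.49, 1.93, 2.55 and 4.87 CPM. Ccne1 and Cdc6 had too few UMIs to count as measured in control skin and in the untreated comparison.

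**Figure D2:**
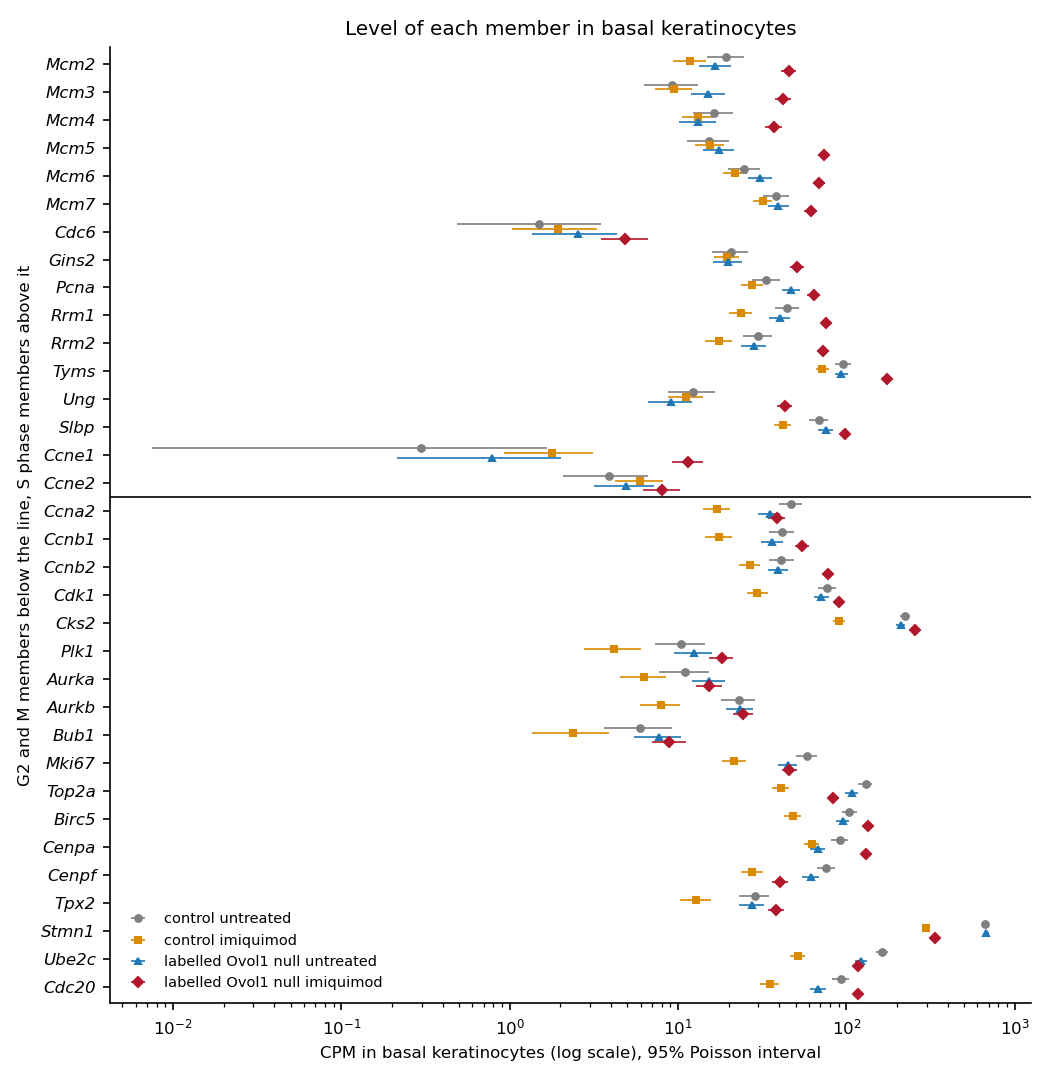
Level of each of the 34 members in basal keratinocytes, in CPM of the class on a log axis, with 1 point per library and bars for the 95% Poisson interval. Control imiquimod has the lowest point for each of the 18 G2 and M members, and the library labelled Ovol1 null imiquimod the highest for each of the 16 S members.

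Imiquimod in Ovol1 null skin: between the libraries labelled Ovol1 null, 17 members were higher in imiquimod basal cells than in untreated ones and 2 were lower. Of 16 measured S members 13 were higher, and of 18 measured G2 and M members 4 were higher (Ccnb1, Ccnb2, Cenpa and Cdc20) and 2 lower (Stmn1 and Cenpf), while 16.5% of the 10930 genes measured were higher and 28.8% lower. The median log2 ratio was 1.25 over the S members, 0.25 over the G2 and M members and -0.18 over all genes. The S sum was 2.05-fold higher (1.96 to 2.15) and the G2 and M sum was at a ratio of 0.945 (0.919 to 0.970). TMM scaling, which shifts this comparison by 0.18, puts the G2 and M sum at a log2 ratio of 0.10 in place of -0.08 and gives 22 members higher and 1 lower. In cells matched for UMIs, described below, 2 members were higher and 19 lower, and the log2 ratio of the S sum was -0.17 in place of 1.04.

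Helicase subunits and other replication genes led here. Mcm5 was at 15.2, 15.5, 17.5 and 73.1 CPM, 4.18-fold higher (3.35 to 5.29) in the imiquimod library of the pair labelled Ovol1 null. Mcm4 was at 16.4, 13.1, 13.2 and 37.1 CPM, 2.82-fold higher. Ung, which removes uracil from DNA, was at 12.2, 11.2, 9.03 and 43.1 CPM, 4.77-fold higher (3.501 to 6.63). For these 3 genes the fourth library stood above the others, which lay close together. Ccne1, the G1/S cyclin E1, was 14.6-fold higher, with a wide interval (5.50 to 54.6) set by its 4 UMIs in the untreated library. Tyms, thymidylate synthase, was at 95.8, 71.8, 93.2 and 173.9 CPM, and Rrm2 at 29.8, 17.6, 28.1 and 72.7 CPM. In cells matched for UMIs both had negative log2 ratios between the libraries labelled Ovol1 null. Slbp and Pcna were under the fold, at 1.30-fold (1.15 to 1.47) and 1.36-fold (1.16 to 1.59).

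The G2 and M members did not go one way between these libraries. Ccnb2 was 1.97-fold higher (1.68 to 2.33), Cenpa 1.93-fold higher and Cdc20, which was at 92.3, 35.1, 67.9 and 117.6 CPM, 1.73-fold higher. Ccnb1, cyclin B1, was at 41.4, 17.4, 36.3 and 54.5 CPM, 1.501-fold higher. In cells matched for UMIs Ccnb2, Cenpa and Cdc20 had negative log2 ratios, and no matched value is given for Ccnb1. Stmn1 was at 666.6, 298.7, 678.5 and 334.9 CPM, 2.03-fold lower (1.93 to 2.13), and Cenpf was 1.52-fold lower. Stmn1 was thus low in both imiquimod libraries. Mki67 was at a ratio of 1.02 (0.865 to 1.21). Leaving out Stmn1, which has the most UMIs of the list, turned the G2 and M sum of this comparison to a log2 ratio of 0.31.

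Ovol1 null against control, untreated: in untreated basal cells, 1 of the 34 members was higher in the library labelled Ovol1 null and none was lower, with 14 S and 18 G2 and M members measured. Among the 10418 genes measured, 3.5% were higher and 2.61% lower. Mcm3, a helicase subunit at 9.23, 9.52, 15.1 and 42.2 CPM, was the member that was higher, by 1.64-fold (1.07 to 2.57). Pcna was at a ratio of 1.41 (1.12 to 1.78), under the fold. Mki67 was at 1.30-fold lower and Cdc20 at 1.36-fold lower, also under it. The sums were at ratios of 0.912 (0.883 to 0.942) for G2 and M and 1.04 (0.978 to 1.12) for S. The call of Mcm3 was lost under 6 of the alternatives, and clustering each library on its own gave 8 members lower.

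Ovol1 null against control, imiquimod: in imiquimod basal cells, 31 of the 34 members were higher in the library labelled Ovol1 null than in control and none was lower. They were 15 of 16 measured S members and 16 of 18 measured G2 and M members, against 21.4% of the 11000 genes measured that were higher and 22.3% that were lower. The median log2 ratio was 1.57 over the S members and 1.49 over the G2 and M members, and -0.02 over all genes. The S sum was 2.85-fold higher (2.72 to 2.99) and the G2 and M sum 2.03-fold higher (1.97 to 2.1). In cells matched for UMIs, described below, 7 members were higher and 5 lower, and the log2 ratio of the G2 and M sum was -0.20 in place of 1.02. This comparison shares its libraries with both imiquimod comparisons.

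The members with large ratios came from both lists. Ccne1 was 6.41-fold higher (3.501 to 12.8), Mcm5 4.73-fold higher (3.83 to 5.88) and Rrm2 4.15-fold higher (3.40 to 5.10). Plk1, a kinase of mitotic entry and spindle assembly, was at 10.4, 4.16, 12.4 and 18.1 CPM, 4.35-fold higher (2.89 to 6.77). Bub1, a spindle checkpoint kinase, was at 5.95, 2.38, 7.65 and 8.88 CPM, 3.73-fold higher. Cdc20 was 3.35-fold higher (2.90 to 3.88). Of these members, Rrm2, Plk1 and Bub1 had negative log2 ratios in cells matched for UMIs, described below. Each of the 3 mitotic genes was lowest in control imiquimod, and each of the 3 replication genes was highest in the library labelled Ovol1 null imiquimod. Mki67 was 2.12-fold higher (1.75 to 2.59) and Pcna 2.32-fold higher (1.96 to 2.75). The members under the fold were Ccne2 at 1.35 (0.898 to 2.05), Cenpf at 1.46 (1.22 to 1.76) and Stmn1 at 1.12 (1.06 to 1.19).

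The remaining members followed their list. Mcm2 was at 19.3, 11.8, 16.7 and 45.6 CPM, Mcm6 at 24.7, 21.9, 30.8 and 68.7 CPM and Mcm7 at 38.4, 31.8, 39.4 and 61.3 CPM. These 3 helicase subunits were highest in the fourth library. Cdk1 was at 77.1, 29.6, 71.0 and 90.6 CPM, its binding partner Cks2 at 222.9, 90.6, 210 and 256.9 CPM, and Ccna2, cyclin A2, at 46.7, 17.0, 34.9 and 38.4 CPM. Birc5, the survivin subunit of the chromosomal passenger complex, was at 104.2, 47.9, 95.2 and 134.2 CPM, Tpx2, a spindle assembly factor, at 28.6, 12.8, 27.5 and 38.2 CPM, and Aurka, a centrosomal kinase, at 11.0, 6.25, 15.3 and 15.3 CPM. All 6 were lowest in control imiquimod. Ccne2 was at 3.87, 5.95, 4.91 and 8.03 CPM.

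**Figure D3:**
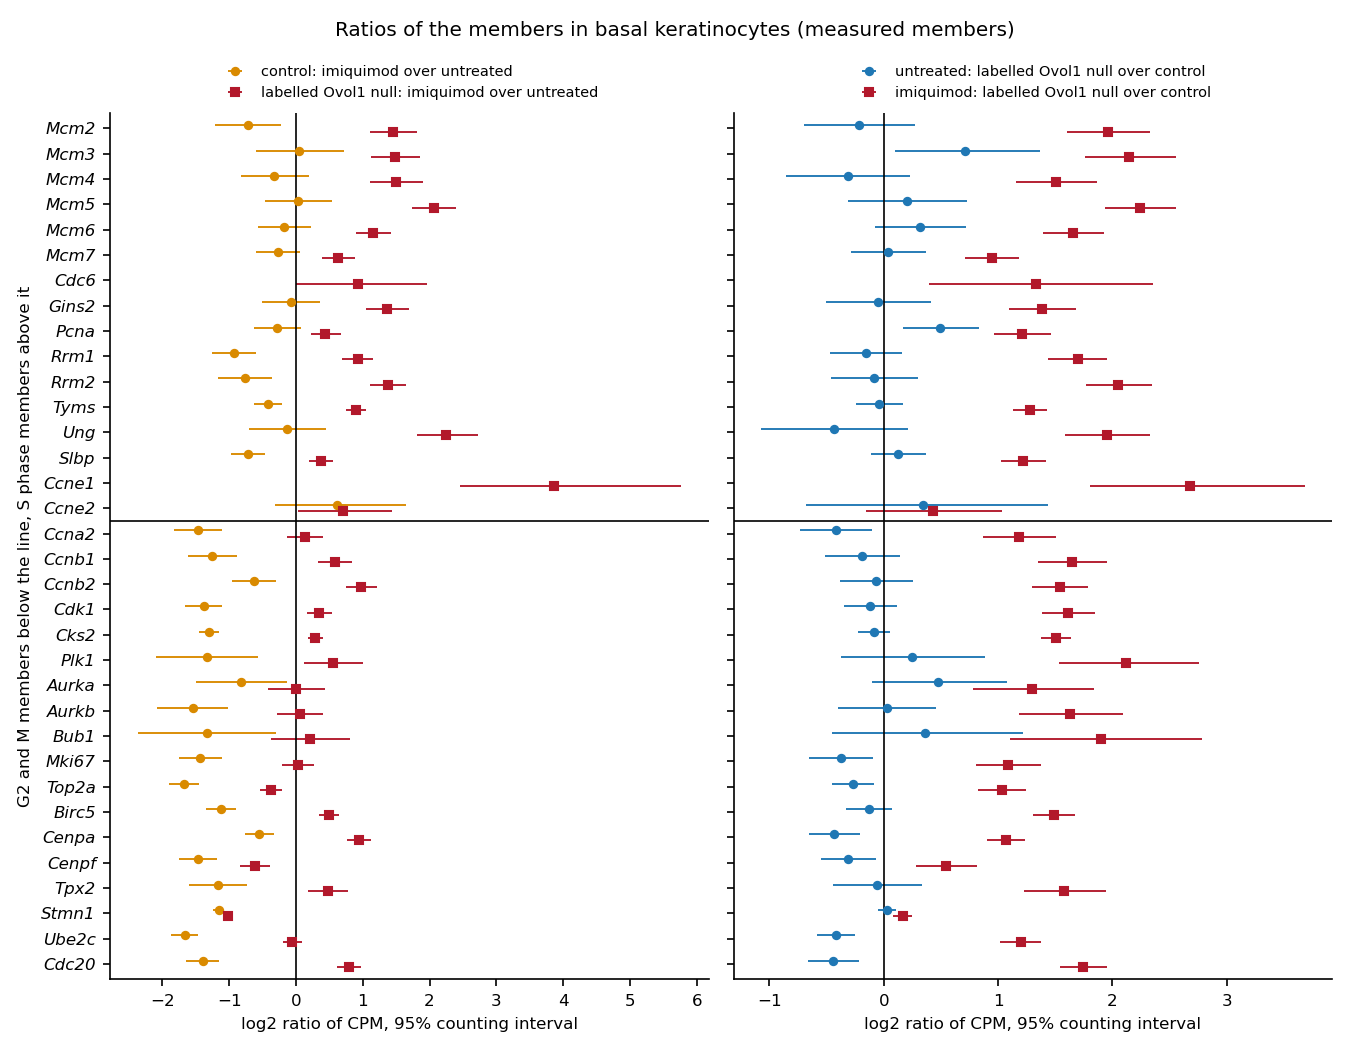
Log2 ratios of the measured members in basal keratinocytes, with bars for the 95% counting interval: imiquimod over untreated in control and in the libraries labelled Ovol1 null (left), and labelled Ovol1 null over control without and with imiquimod (right). The G2 and M members lie below 0 for imiquimod in control, the S members above 0 for imiquimod between the libraries labelled Ovol1 null, and all measured members above 0 between the imiquimod libraries.

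The imiquimod ratios can be set against each other, as null over control. In basal cells this ratio of ratios was 2.73 (2.52 to 2.96) for the S sum and 2.23 (2.13 to 2.33) for the G2 and M sum. It was 5.22 for Ung, 4.55 for Cdc20 and 4.50 for Mcm2, and 1.10 for Stmn1. In cells matched for UMIs within each pair, described below, the G2 and M sum was lower with imiquimod in both pairs. That difference was larger between the libraries labelled Ovol1 null, but the pairs were matched at unlike depths. The matched control cells had medians of 5067.5 (imiquimod) and 5039.5 (untreated) UMIs. Those of the libraries labelled Ovol1 null had 9803 and 9417. The G2 and M level varied with the UMI count of a cell, so no order of the pairs is read from matched cells. Cdc20 was also lower with imiquimod between the libraries labelled Ovol1 null in matched cells. The intervals of the ratio of ratios cover counting error, and with 1 library per group the difference itself was not tested.

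Depth stood apart in the library that carries these results, so the members were also read in cells of like UMI count. In every library whose ranges could be compared except the fourth, the G2 and M level was higher in cells with more UMIs. In cells of 8000 to under 16000 UMIs, the G2 and M sum was 5309, 1331, 4242 and 1021 CPM over 83, 199, 134 and 191 basal cells. In cells of 4000 to under 8000 UMIs it was 748.1, 471.2, 658.5 and 1346 CPM, the last from 47 cells. The order of the libraries thus differed between these ranges. In the library labelled Ovol1 null imiquimod, the 223 basal cells with 16000 UMIs or more, 47.4% of the class, had 1906 CPM, a range that held 4, 16 and 11 cells of the other libraries. The S sum was 255, 224.6, 326.1 and 462.2 CPM in cells of 4000 to under 8000 UMIs and 936.9, 503.3, 795.8 and 578.8 CPM in cells of 8000 to under 16000 UMIs.

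**Figure D4:**
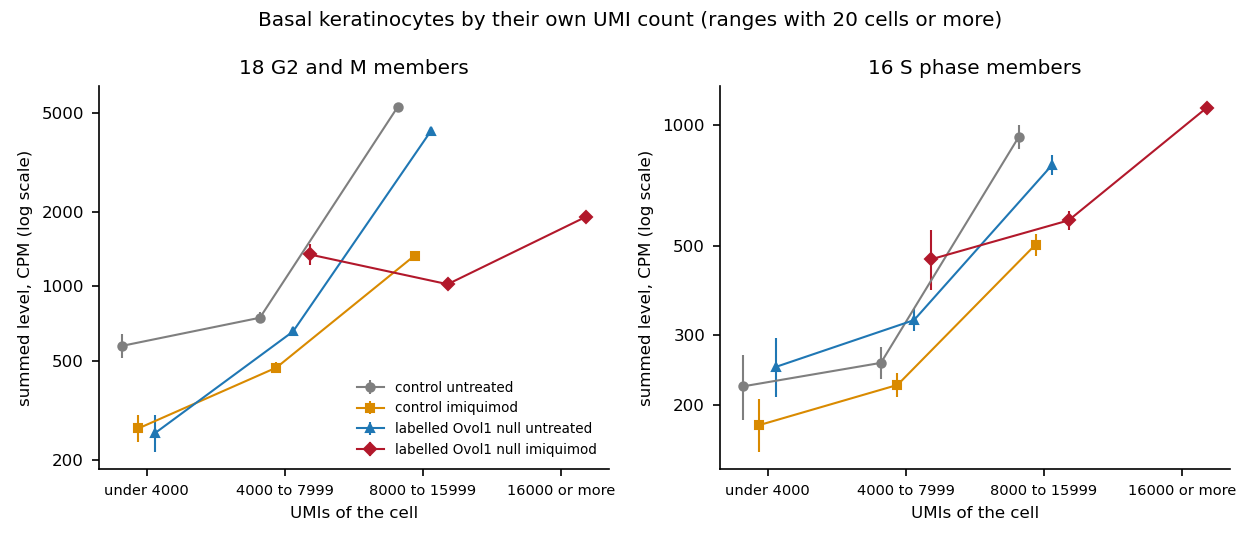
Summed level of the S and of the G2 and M members in basal keratinocytes by the UMI count of the cell, in CPM on a log axis, 1 line per library, for ranges with 20 cells or more and with 95% counting intervals. In the range of 8000 to under 16000 UMIs both untreated libraries lie above the imiquimod ones, and in the range of 4000 to under 8000 UMIs the library labelled Ovol1 null imiquimod lies above the others.

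Matching basal cells one to one for UMI count changed the comparisons with the fourth library. With 177 cells per library, whose medians were 9803 and 9417 UMIs, the log2 ratio for imiquimod between the libraries labelled Ovol1 null was -0.17 for the S sum in place of 1.04 and -1.70 for the G2 and M sum in place of -0.08. Between the imiquimod libraries, 196 matched cells per library gave log2 ratios of 0.34 for S in place of 1.51 and -0.20 for G2 and M in place of 1.02. Imiquimod in control kept its direction, with 602 cells per library and a log2 ratio of -1.34 for G2 and M. Across the 4 libraries, basal cells at or over the threshold described next had a median of 8665, 7859, 9107 and 19488.5 UMIs, against 4825, 5091, 5239 and 14367 in cells with no UMI of the list among 1400 drawn, so the UMI count of a cell and the members are not independent. How much of these results goes with capture depth and how much with the cells cannot be told apart with 1 library per group.

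The share of cells carrying the members was read after drawing 1400 UMIs from each cell, with 3 or more UMIs of the G2 and M list as the threshold. Among basal cells 63, 92, 93 and 134 reached it. They were 10.5% (8.14 to 13.2), 7.98% (6.48 to 9.70), 11.1% (9.07 to 13.4) and 28.5% (24.4 to 32.8) of the class, with exact binomial intervals. The last library stood above the others, which had overlapping intervals. Both statements depend on the settings. With each library clustered on its own, control untreated was at 16.4% (13.3 to 19.8) and control imiquimod at 5.81% (4.68 to 7.10), which do not overlap. At 5 or more UMIs the library labelled Ovol1 null imiquimod was at 14.2% (11.2 to 17.7) and the untreated one at 9.45% (7.55 to 11.6), which do. For the S list the shares were 3.32%, 2.34%, 5.50% and 16.4%, and cells that reached the threshold with either list were 11.3%, 9.02%, 12.6% and 39.1%. Without drawing to an equal depth, the G2 and M shares were 20.9%, 18.2%, 23.0% and 83.2%. The count at exactly 3 UMIs was 6, 13, 9 and 40 cells and at 1 UMI fewer 17, 36, 30 and 48 cells.

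The share and the level did not give the same order. Between the libraries labelled Ovol1 null, the share was 2.56-fold higher with imiquimod (2.01 to 3.25) while the G2 and M level was at a ratio of 0.945, so no order is read from the share. The level within the cells differed as well. Basal cells at or over the threshold had a mean of 102.4, 50.7, 80.8 and 31.4 G2 and M UMIs per 10000, and cells with none among the 1400 drawn had 1.27, 0.946, 1.22 and 3.91 per 10000. In the fourth library the members were therefore less concentrated in the cells that reached the threshold. Fibroblasts, in which few cells divide, had shares of at most 0.0656%. None of 106, 65, 84 and 230 mural cells reached the threshold, which by a floor of 3 cells allows shares of up to 2.83%, 4.62%, 3.57% and 1.30%.

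**Figure D5:**
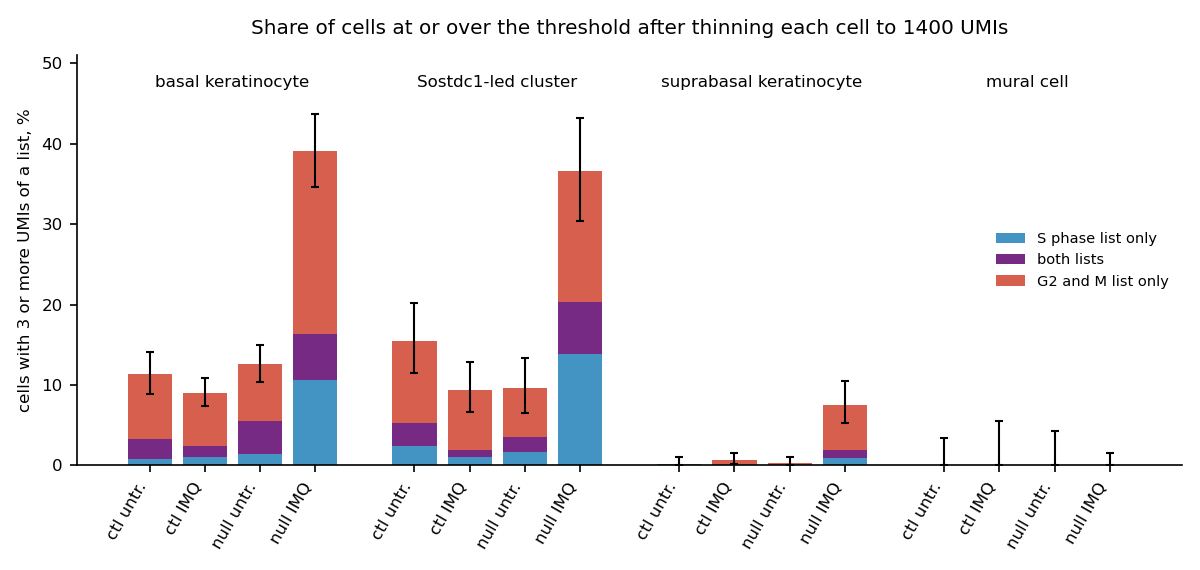
Stacked bars of the percent of cells with 3 or more UMIs of the S list only, of both lists or of the G2 and M list only, after drawing 1400 UMIs from each cell, by cell class and library (ctl for control, null for labelled Ovol1 null, untr. for untreated, IMQ for imiquimod), with exact binomial 95% intervals of the whole bar. In basal keratinocytes the whole bar reaches 39.1% for null IMQ, while the other bars end between 9.02% and 12.6%.

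Other keratinocytes held the members at lower levels, except the Sostdc1-led cluster. In this cluster of 285, 373, 313 and 232 cells, the S sum was at 469.1, 246.2, 310.4 and 1097 CPM, 3.54-fold higher (3.2 to 3.91) in the imiquimod library of the pair labelled Ovol1 null, and the G2 and M sum was 1.42-fold higher. Its cells in the fourth library varied with the clustering. The Sostdc1-led cluster held 258, 341, 297 and 75 cells with cell cycle genes kept in the clustering. It held 237, 307, 244 and 102 with the stricter cell filter. Sostdc1 itself was at 1166, 725.5, 994 and 300.2 CPM in the cluster. The part of this mixture of cells in the sums was not tested. In control skin both sums were lower with imiquimod, at ratios of 0.525 for S and 0.573 for G2 and M. With cells matched for UMIs the G2 and M sum between the imiquimod libraries went from a log2 ratio of 0.99 to -0.31. In suprabasal cells the G2 and M sum was 2.62-fold higher in the library labelled Ovol1 null imiquimod than in control imiquimod. The suprabasal cells lay in different clusters: 506, 66, 869 and 0 in one and 11, 693, 31 and 37 in another, and 387 of the 424 of the fourth library were named from clustering that library alone. Cks2 in suprabasal cells was at 26.9, 22.8, 36.0 and 73.7 CPM, Cenpa at 2.52, 5.17, 6.98 and 30.5 CPM and Ube2c at 3.08, 3.56, 11.1 and 23.2 CPM. Suprabasal Krt14, a keratin of basal cells, was at 1181, 2687, 1681 and 15516 CPM. The 28 suprabasal cells of the fourth library that reached the threshold had a median of 224.3 Krt14 and 1.69 Krt10 UMIs per 10000, against 110.6 and 87.6 in cells with none drawn, a lower level of the suprabasal keratin Krt10.

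In the upper hair follicle, the G2 and M sum rested on Stmn1, which was at 198.6, 100.8, 176.9 and 45.2 CPM. Without Stmn1 the log2 ratios of this sum were 0.18 in place of -0.60 for imiquimod in control and 0.45 in place of -0.85 between the libraries labelled Ovol1 null. Among immune cells, the macrophage-marker cluster had a G2 and M sum 11.0-fold lower in the library labelled Ovol1 null imiquimod than in the untreated one. Other genes of this cluster differed between these libraries too: C1qa, a macrophage complement gene, was at 203.4, 1014, 161.9 and 1329 CPM, Krt10 at 436.8, 545, 1145 and 84.7 CPM and Col1a1, a fibroblast collagen, at 9528, 966.8, 3837 and 1976 CPM. Their part in the result was not tested. Its Top2a was at 34.3, 10.8, 57.9 and 0 CPM, the last with an exact Poisson upper limit of 7.44 CPM, and its Stmn1 at 174.8, 95.2, 292.2 and 8.06 CPM. In T or NK cells the G2 and M sum of untreated skin was at a ratio of 0.442 in the library labelled Ovol1 null, with Birc5 at 53.5, 37.6, 2.17 and 34.7 CPM.

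The rest of the cell cycle was read from 5 further lists, of 105 genes that are no members, in basal cells. Other mitotic genes went with the G2 and M members: of 45, 41 were lower for imiquimod in control and none higher, and 40 were higher and none lower between the imiquimod libraries. Kif20a, a mitotic kinesin, was 3.83-fold lower in the former and 3.97-fold higher in the latter. Other replication genes went with the S members. Of 27 measured, 19 were higher and none lower with imiquimod between the libraries labelled Ovol1 null, and 23 were higher and none lower between the imiquimod libraries. Uhrf1, which keeps DNA methylation through replication, was 2.85-fold and 4.48-fold higher. For imiquimod in control, 2 of 26 were higher and 9 lower, and untreated null over control gave 1 of 26 higher and none lower. Mitotic genes between the libraries labelled Ovol1 null were 11 higher and 6 lower of 45, and in untreated null over control 4 of 45 were lower. The share of all genes past the rule in each comparison is given above. No values in cells matched for UMIs are given for the 5 lists.

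Most brakes on the cycle were lower in the library labelled Ovol1 null imiquimod, in which replication genes were higher. Of 10 measured CDK inhibitors and antiproliferative genes, 8 were lower and none higher with imiquimod between the libraries labelled Ovol1 null, with a median log2 ratio of -1.41. Of all genes measured there, 28.8% were lower and 16.5% higher. Cdkn1a, which encodes the CDK inhibitor p21, was at 143.1, 113.9, 119.5 and 58.2 CPM, 2.06-fold lower (1.82 to 2.32). Cdkn1b, which encodes p27, was at 21.4, 20.5, 22.2 and 7.42 CPM, 2.99-fold lower (2.17 to 4.15). Btg2, an antiproliferative gene, was 4.26-fold lower (3.94 to 4.605). Between the imiquimod libraries 6 of 11 brakes were lower and 1 higher, against 22.3% and 21.4% of all genes. In control skin 4 of 11 were lower with imiquimod and none higher, against 14.8% and 6.68% of all genes. In untreated null over control none of 10 was past the rule. The untreated comparison thus showed no brake past the rule.

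G1 cyclins and the Rb and E2F genes gave mixed counts. Ccnd1, cyclin D1, was at 49.7, 44.9, 65.9 and 86 CPM, 1.91-fold higher between the imiquimod libraries. Ccnd2, cyclin D2, was at 137.5, 233.2, 143.1 and 104.4 CPM, 1.70-fold higher with imiquimod in control and 2.23-fold lower between the imiquimod libraries. Of 6 G1 genes, 4 were higher and 1 lower between the imiquimod libraries, and 1 was higher and 1 lower in each imiquimod comparison. Cdk2, a kinase of S phase entry, was 4.73-fold lower with imiquimod in control and 3.22-fold higher between the imiquimod libraries. Among 13 measured Rb, E2F and DREAM regulators, 8 were higher and none lower between the imiquimod libraries, where 21.4% of all genes were higher. Between the libraries labelled Ovol1 null with imiquimod and in untreated null over control alike, 2 were higher and none lower. Of all genes 16.5% and 3.5% were higher in these comparisons. Mybl2, the MYB-like factor of the mitotic gene complex, was 9.47-fold higher between the imiquimod libraries, from 81 against 7 UMIs. Foxm1, the forkhead factor of mitotic genes, was 3.00-fold lower with imiquimod in control. There 3 of 12 measured regulators were lower and none higher, while 14.8% of all genes were lower.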

How the data were processed

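Single-cell RNA sequencing gave 1 count matrix of 4 libraries, with each cell's library in its barcode suffix as the labels give it. The values are UMI counts per gene and cell, deposited by the authors as raw counts; per the submitters' processing notes Cell Ranger 2.1.0 and build mm10 were used. Cells with under 200 genes or over 10% mitochondrial UMIs were left out (116, 192, 272 and 56), as were 120, 94, 78 and 118 doublets called with Scrublet in scanpy 1.11.5 at 1 score threshold of 0.25. Clusters (Leiden 0.10.2, resolution 1, 30 components, 15 neighbours, 2000 variable genes without the 139 listed cell cycle genes) were named from marker lists, with at least 3 markers past a 2-fold rule. Cells of unnamed clusters were named from clustering each library alone. So were those of clusters whose leading genes went against the marker count, if at least 90% of the cells were of 1 library. Other named clusters kept their name, also where nearly all cells were of 1 library. The naming rule was chosen after the clusters were seen.

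UMIs of a gene were summed over a class per library and divided by the class total. Intervals are exact Poisson, binomial or conditional binomial, and log2 ratios add 0.5 counts. Total UMIs per library were 37331165, 29649307, 31517218 and 55103047. A class was compared with 50 cells or more in both libraries. TMM factors came from edgeR 4.0.16, which was used for nothing else. The ratio rule was checked on simulated Poisson counts, and the drawing of UMIs on simulated cells of equal depth. These held no variation between mice or cells and no clustering, so they do not check the comparisons between libraries. All members may be named; those with the 4 largest and 2 smallest log2 ratios per list and comparison, Mki67 and Pcna have values in every library, and of the further lists up to 3 genes per comparison past the rule, Cdkn1a, Cdkn1b, Ccnd1 and Ccnd2. The members and lists were chosen with earlier results of these data known. Alternatives were other clusterings, filters, scalings, thresholds and matched depth.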

Additional observations from a re-analysis of the deposited data

Results flagged for a closer look

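In several classes the imiquimod ratio had opposite directions in the pair of libraries labelled Ovol1 null and in the control pair. In basal cells matched for UMIs, the S sum was also lower with imiquimod in the pair labelled Ovol1 null. The values are the log2 imiquimod ratio of the pair labelled Ovol1 null minus that of the control pair, and since each group has 1 library the difference was not tested. For the S sum it was 1.51 over all keratinocytes, 1.45 in basal keratinocytes and 1.14 in the upper hair follicle. It was 2.75 in the Sostdc1-led cluster, whose cells in the library labelled Ovol1 null imiquimod varied with the clustering. For the G2 and M sum it was 1.10 over all keratinocytes, 1.31 in the Sostdc1-led cluster and 1.40 in T or NK cells. In fibroblasts, where the G2 and M sum was between 26.0 and 47.7 CPM, it was -1.46. Fibroblasts of the libraries lay in different clusters, since 1 cluster held 2202 of those of control imiquimod and none of control untreated, and 2579 of the 2586 in the library labelled Ovol1 null imiquimod were named from clustering that library alone. Of the 215 T or NK cells of that library, 178 lay in the joint T or NK cluster, and the rest were named from clustering it alone. Dcn, of the fibroblast marker list, was at 429.2, 950, 656.9 and 6153 CPM in the T or NK class. The part of such cells in the T or NK difference was not tested.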

How the results depend on the processing

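No paired analysis was possible because each group has 1 library, and for the same reason no library could be left out. Values are log2 ratios in basal keratinocytes, given for G2 and M and then S, unless named otherwise. For imiquimod in control (-1.24 and -0.41), keeping cell cycle genes in the clustering gave -1.12 and -0.51, clustering each library alone -2.12 and -0.91, a stricter cell filter -1.36 and -0.55, and TMM scaling -1.03 and -0.20. G2 and M was -1.34 in cells matched for UMIs and -1.12 as a mean over cells. For imiquimod between the libraries labelled Ovol1 null (-0.08 and 1.04), clustering alone gave -0.18 and 0.90, the stricter filter -0.31 and 0.92, TMM 0.10 and 1.22, matched cells -1.70 and -0.17, and the mean over cells 0.37 and 1.15. G2 and M was 0.12 with cell cycle genes kept and 0.31 without Stmn1. For untreated null over control (-0.13 and 0.06), clustering alone gave -0.51 and -0.07 and matched cells -0.54 and -0.15. G2 and M was -0.22 as a mean over cells and -0.23 without Stmn1, and S was -0.08 with cell cycle genes kept. Between the imiquimod libraries (1.02 and 1.51), clustering alone gave 1.43 and 1.74, matched cells -0.20 and 0.34, and the mean over cells 1.27 and 1.63. G2 and M was 0.94 with the stricter filter, 0.98 with called doublets kept and 1.37 without Stmn1.

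Of the alternatives chosen after seeing the data, counting the Sostdc1-led cluster as basal gave -1.14 and -0.52 for imiquimod in control, 0.02 and 1.21 between the libraries labelled Ovol1 null, -0.07 for S in untreated null over control and 1.65 for S between the imiquimod libraries. All keratinocytes as 1 class gave -0.86 for G2 and M in control, 0.24 and 1.14 between the libraries labelled Ovol1 null, -0.14 for S untreated, and 0.93 and 1.37 between the imiquimod libraries. Cells of at least 3100 UMIs gave -0.14 for G2 and M between the libraries labelled Ovol1 null and 0.97 between the imiquimod libraries.

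Counts of members moved too. Between the libraries labelled Ovol1 null, 17 higher became 2 in matched cells and 9 at a ratio of 2, and 2 lower became 19 in matched cells and 1 with cell cycle genes kept, all keratinocytes, TMM or a ratio of 2. For untreated null over control, 1 higher became 0 with cell cycle genes kept, the stricter filter, the Sostdc1-led cluster, all keratinocytes, matched cells or a ratio of 2, and 0 lower became 8 with clustering alone, 10 in matched cells, and 1 with cell cycle genes kept, the Sostdc1-led cluster or all keratinocytes. Between the imiquimod libraries, matched cells gave 7 higher in place of 31 and 5 lower in place of 0. The log2 ratio of the G2 and M share moved from -0.39 to -1.49 for imiquimod in control and from 0.09 to -0.44 for untreated null over control with clustering alone. It moved from 1.35 to 0.59 at 5 UMIs and 1.86 without thinning between the libraries labelled Ovol1 null, and from 1.83 to 1.27, 2.19 and, with clustering alone, 2.28 between the imiquimod libraries.

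Single members that changed direction did so in matched cells, except Cenpf, which was at 0.00 between the libraries labelled Ovol1 null as a mean over cells. Matched values between those libraries included Rrm1 -0.48, Rrm2 -1.05, Tyms -0.42, Ccne2 -0.80, Ccnb2 -0.37, Cenpa -0.27 and Cdc20 -1.04. Between the imiquimod libraries they included Rrm2 -0.18, Slbp -0.06, Ccna2 -0.79, Cdk1 -0.78, Plk1 -0.65, Aurka -1.01, Aurkb -0.92, Bub1 -0.18, Top2a -0.27 and Ube2c -1.33. Not every member that turned is listed. Between the libraries labelled Ovol1 null, more members were lower in matched cells than are named here. Sums that changed direction in matched cells were suprabasal S between the libraries labelled Ovol1 null (-0.15), G2 and M of the Sostdc1-led cluster between the imiquimod libraries (-0.31) and of the macrophage-marker cluster for imiquimod in control (0.14). The upper follicle G2 and M sum for imiquimod in control was 0.08 with clustering alone and 0.18 without Stmn1, and 0.45 without Stmn1 between the libraries labelled Ovol1 null. Other than the matched cells, whose construction keeps fewer cells of other UMI counts, the cause of these moves was not tested. Depth limits Ccne1 and Cdc6, which were not measured in all comparisons.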

Other observations

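Over whole libraries, the cells that reached 3 or more G2 and M UMIs after drawing 1400 UMIs per cell were 163, 145, 163 and 250 cells, or 2.69%, 2.60%, 3.13% and 4.50% of the kept cells, in the order control untreated, control imiquimod and the libraries labelled Ovol1 null untreated and imiquimod. Basal keratinocytes were 38.6%, 63.4%, 57.1% and 53.6% of them and the Sostdc1-led cluster 22.7%, 21.4%, 15.3% and 21.2%. T or NK cells were 11.0%, 2.76%, 2.45% and 4.80% of them. Of all sebocytes, a class too small in control imiquimod to be compared above, 10 of 77 reached the threshold in control untreated and none of 22 in control imiquimod. In the libraries labelled Ovol1 null untreated and imiquimod 14 of 84 and 16 of 92 did. Of the few Schwann cells 7 of 26, 3 of 14, 6 of 80 and 0 of 5 did.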
